A study of Rattus norvegicus with 12 samples.

Results

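The genes described here are 34 genes of the integrated stress response and of amino acid supply, given as a list of symbols and read out of a rat RNA-seq count table. Of these, 33 have an entry among the 28727 named genes, 28 had enough reads to be tested, and the counts of Cth were not analysed here. INS-1 832/13 cells, an insulin-secreting rat insulinoma line, were transduced with an adenovirus for GFP or an adenovirus for ChREBPβ and cultured in 2 or 11 mM glucose for 48 h. ChREBPβ is the shorter isoform of the glucose-responsive transcription factor ChREBP and lacks its low glucose inhibitory domain. Each of the 4 groups (GFP in 2 mM, GFP in 11 mM, ChREBPβ in 2 mM and ChREBPβ in 11 mM) held 3 libraries, lettered a, b and c. All 12 libraries therefore carried a virus and came from a single tumour line. The ChREBPβ virus carries a mouse sequence tagged with mCherry, the promoter that drives it is not given in the sources used here, and no library without a virus was compared here.

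In the integrated stress response, kinases that sense endoplasmic reticulum stress, amino acid shortage or other strains phosphorylate the initiation factor eIF2α. General protein synthesis then slows while the mRNA of the transcription factor Atf4 is translated more. Atf4 and its bZIP partners switch on amino acid transporters, amino acid enzymes, regulators such as Trib3 and Chac1, and secreted hormones, and a phosphatase loop removes the phosphate again. The secretory β-cell is known to depend on the kinase Perk (Eif2ak3). The libraries measured mRNA, so neither phosphorylation nor translation was read.

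Total counts ranged from 25754488 to 60531215 per library and were lowest with GFP in 2 mM, where the median was 30197425 against 59249045 with ChREBPβ in 11 mM. The β-cell markers were present in every library, but their summed level fell with the virus and with glucose, from 15342 to 17203 CPM (counts per 1000000 of the TMM-scaled library) with GFP in 2 mM to 5566 to 5940 with ChREBPβ in 11 mM. This range was 11703 to 12729 with GFP in 11 mM and 6524 to 6652 with ChREBPβ in 2 mM. The glucagon gene Gcg was read in all groups, at 1589 to 1719 CPM with GFP and 429 to 502 CPM with ChREBPβ. Summed exocrine and duct markers stayed at or below 0.0423 CPM, and Ptprc, Prss1 and Cftr were at 0 in every library. Summed fibroblast markers were at 4.06 to 8.82 CPM with GFP and 3.8 to 5.51 with ChREBPβ, endothelial markers at 1.07 to 1.86 and 0.512 to 1.15, and immune markers at 0.429 to 0.656 and 0.663 to 1.22. Among them Pdgfrb, a fibroblast and pericyte receptor, was at 0 to 0.0292 CPM with GFP and 0.41 to 1.01 with ChREBPβ and was called higher at both glucose concentrations. Cd68, of macrophages, was at 0.268 to 0.571 and 0.561 to 1.11 CPM and was called higher in 2 mM. Other markers went down. Pdgfra, another fibroblast marker, was called lower in 2 mM, from 6.91 to 8.78 CPM with GFP to 3.32 to 4.4 with ChREBPβ. The endothelial marker Kdr was called lower at both glucose concentrations, with log2 fold changes of -0.81 and -0.98. The part of these marker shifts in the results was not tested, and in bulk RNA fewer cells and less RNA per cell cannot be told apart. Rat Mlxipl, which encodes ChREBP, lay at 199 to 212 CPM with ChREBPβ in 2 mM against 240 to 277 with GFP. In 11 mM it lay at 181 to 201 CPM with ChREBPβ against 202 to 212 with GFP. The virus carries mouse sequence. Whether its reads were counted in this row is not known here, so the row does not check the transgene. Known ChREBP targets did differ in 2 mM. Pklr was at 406 to 426 CPM with ChREBPβ against 126 to 133 with GFP, and Txnip at 448 to 472 against 24.3 to 27.7.

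Promoters of the members were searched for the core of the element bound by Atf4 with C/EBP partners, TGATGNAA, on both strands, from 250 bases before to 50 bases after the start of each gene. It was found in 9 of the 29 members in the RefSeq promoter table, and in 3.98% of all 33469 promoters in it. Members were counted by gene, with a match in any promoter listed for the gene, and the percentage by single promoter. The shares are therefore not like for like, and whether members hold the element more often was not tested. The stretches around the match in the 5 of them that changed with ChREBPβ in at least 1 glucose concentration are shown, to let the sequence be read beside the levels given further on. They are from RefSeq on the GRCr8 assembly, 5′ to 3′ on the strand of the gene, with the match in capitals. The match is on the opposite strand in Chac1, Trib3 and Slc1a4. Chac1 lies at chr3:126795938-126795997, Trib3 at chr3:161275534-161275580, Slc7a1 at chr12:11664432-11664487, Slc1a4 at chr14:98761764-98761812 and Jdp2 at chr6:110993549-110993590.
Chac1: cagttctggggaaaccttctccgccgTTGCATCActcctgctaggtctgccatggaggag
Trib3: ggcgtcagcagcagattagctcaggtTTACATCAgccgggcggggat
Slc7a1: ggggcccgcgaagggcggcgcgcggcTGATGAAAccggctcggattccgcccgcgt
Slc1a4: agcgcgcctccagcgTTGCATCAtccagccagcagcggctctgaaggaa
Jdp2: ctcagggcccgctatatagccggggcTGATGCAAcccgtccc
The other 4 members with these letters were Fgf21, Nupr1, Pycr1 and Ppp1r15b. Among the 5 genes printed, Chac1, Trib3 and Slc7a1 rose with ChREBPβ at both glucose concentrations, Slc1a4 fell at both, and Jdp2 fell at 2 mM. The E-box CACGTG, the core of the carbohydrate response element through which ChREBP binds DNA, was found in 6 members (Atf4, Cth, Fgf21, Nupr1, Slc1a4 and Slc7a5) and in 6.42% of all promoters. Members were again counted by gene and the percentage by single promoter. An exact pair of these E-boxes spaced by 5 bases was in 0 member promoters and in 1 of the 33469 promoters of the table. With so rare a match the 0 could hardly have come out otherwise. Pairs with other letters were not searched, so it does not show that the members lack a carbohydrate response element. A match is a description of letters and not a bound site.

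The first comparison asked what ChREBPβ did to these genes in 2 mM glucose. Slc7a11, Asns and Chac1 rose most, Atf4 and the kinase gene Eif2ak3 rose, the gene of the stress factor Chop (Ddit3) did not pass the test, and Jdp2, Sesn2, Slc1a4 and Gdf15 fell. A gene was called changed when it differed at least 1.2-fold with an adjusted p under 0.05 in edgeR's quasi-likelihood test over all 14669 tested genes. By this rule 11 of the 28 tested members rose (39.3%) and 4 fell (14.3%), against 21.0% and 23.2% of all tested genes, of which 44.1% were called in either direction. The members' median log2 fold change was 0.23, against -0.02 over all tested genes, and with scaling to library totals 0.14 against -0.12. In 11 mM glucose 12 members rose (42.9%) and 3 fell (10.7%), against 14.3% and 19.1% of all tested genes, where 33.4% were called, and the median was 0.22 (0.14 with library totals, against -0.10 over all tested genes). Of the 28 members, 10 rose and 3 fell at both concentrations, 2 were called at 2 mM alone, 2 at 11 mM alone and 11 at neither. The same crossing was not counted over all tested genes, so these counts are not read as particular to the members. The 3 libraries of ChREBPβ and the 3 of GFP did not overlap in 18 members at 2 mM (64.3%, against 63.3% of all tested genes) and in 21 at 11 mM (75.0%, against 56.1%).

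**Figure D1:**
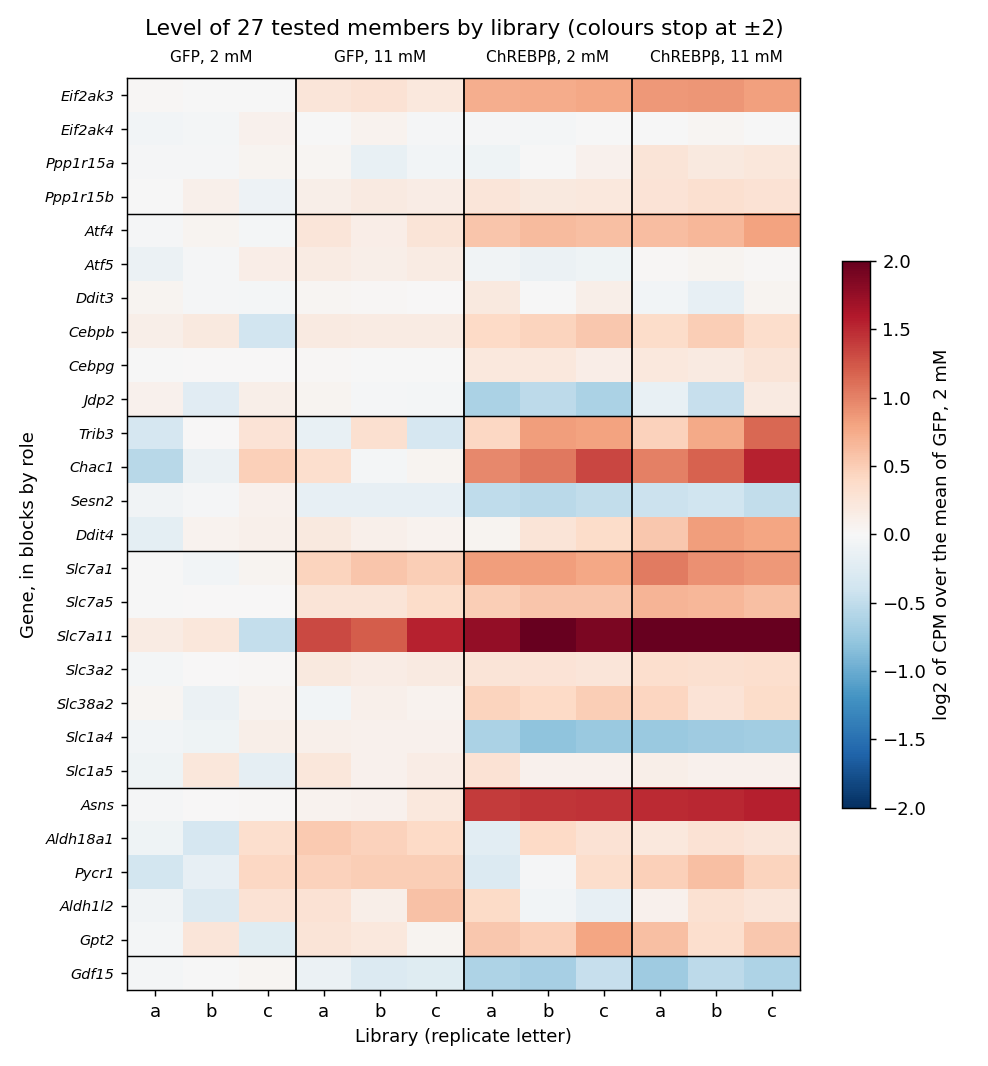
Colour gives the log2 of the TMM-scaled CPM over the mean of GFP in 2 mM for 27 of the 28 tested members (rows, in blocks by role; Fgf21 left out for its low counts) in the 12 libraries (columns, by group and letter). Colours stop at 2 on either side, the Asns row is dark in all 6 ChREBPβ libraries, and the Slc1a4, Sesn2 and Gdf15 rows are blue in them.

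Of the genes that act on eIF2α directly, the kinase Eif2ak3 rose and the others moved little. Eif2ak3 stood at 42.9, 41.8 and 41.9 CPM with GFP in 2 mM, at 50.1, 51.3 and 48.7 with GFP in 11 mM, at 70, 70.6 and 72.5 with ChREBPβ in 2 mM and at 77.2, 77.4 and 74.8 with ChREBPβ in 11 mM. All 6 ChREBPβ libraries lay above all 6 GFP libraries. Its log2 fold change with ChREBPβ was 0.75 ± 0.044 (SE) in 2 mM (edgeR, adjusted p = 1.46e-11) and 0.61 ± 0.042 in 11 mM (adjusted p = 2.85e-10). Eif2ak4, the kinase Gcn2 that senses uncharged tRNA, ranged from 49.1 to 54 CPM over the 12 libraries, with log2 fold changes of -0.02 and -0.01 and approximate 95% intervals of the fold of 0.92 to 1.05 and 0.933 to 1.06. Ppp1r15a, the stress-induced subunit Gadd34 of the eIF2α phosphatase, was at 0.00 in 2 mM and rose by 0.27 ± 0.059 in 11 mM (adjusted p = 0.000722), a call lost without GFP in 11 mM b (0.23) or ChREBPβ in 11 mM a (0.26) and with scaling to library totals (0.19). Ppp1r15b, the constitutive subunit, was higher in all ChREBPβ libraries at each glucose concentration, with log2 fold changes of 0.21 and 0.14, under the 1.2-fold minimum, and was called in 2 mM without GFP in 2 mM b (0.27).

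Of 6 tested transcription factors, Atf4 was the only one called at both glucose concentrations. Atf4 stood at 141, 149 and 139 CPM with GFP in 2 mM, at 169, 157 and 171 with GFP in 11 mM, at 211, 221 and 216 with ChREBPβ in 2 mM and at 220, 226 and 249 with ChREBPβ in 11 mM. The GFP and ChREBPβ libraries did not overlap. The log2 fold change was 0.59 ± 0.05 (adjusted p = 3.91e-09) in 2 mM and 0.48 ± 0.049 (adjusted p = 8.07e-08) in 11 mM.

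Ddit3, which encodes the factor Chop linked to cell death in prolonged stress, did not follow Atf4. It stood at 19.2, 18.2 and 17.9 CPM with GFP in 2 mM, at 19, 18.8 and 18.6 with GFP in 11 mM, at 21, 18.3 and 20.1 with ChREBPβ in 2 mM and at 17.8, 16.4 and 19.1 with ChREBPβ in 11 mM. The groups overlapped at both glucose concentrations. The approximate 95% intervals of the fold were 0.972 to 1.18 in 2 mM (adjusted p = 0.25) and 0.859 to 1.03 in 11 mM (adjusted p = 0.316). Neither interval reached the 1.2-fold minimum, and the difference between Ddit3 and Atf4 was not itself tested.

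The remaining factors were mixed. Cebpb, a C/EBP partner of Atf4, rose by 0.47 ± 0.096 in 2 mM (adjusted p = 0.00032) and was at 0.23 in 11 mM, under the minimum; with GFP in 2 mM library c was low, at 19.4 CPM beside 27.5 and 28.9. Cebpg, another partner, was at 0.18 and 0.22, with all ChREBPβ libraries higher but under the minimum. Atf5, which is translated like Atf4, was at -0.09 and -0.12. Jdp2, a bZIP repressor, fell in 2 mM from 6.39, 5.13 and 6.54 CPM to 3.9, 4.17 and 3.87 (-0.59 ± 0.15, adjusted p = 0.00194), while its libraries overlapped in 11 mM (-0.12). Nupr1, a stress-induced chromatin protein, had 5 counts in all over 12 libraries and was not tested.

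**Figure D2:**
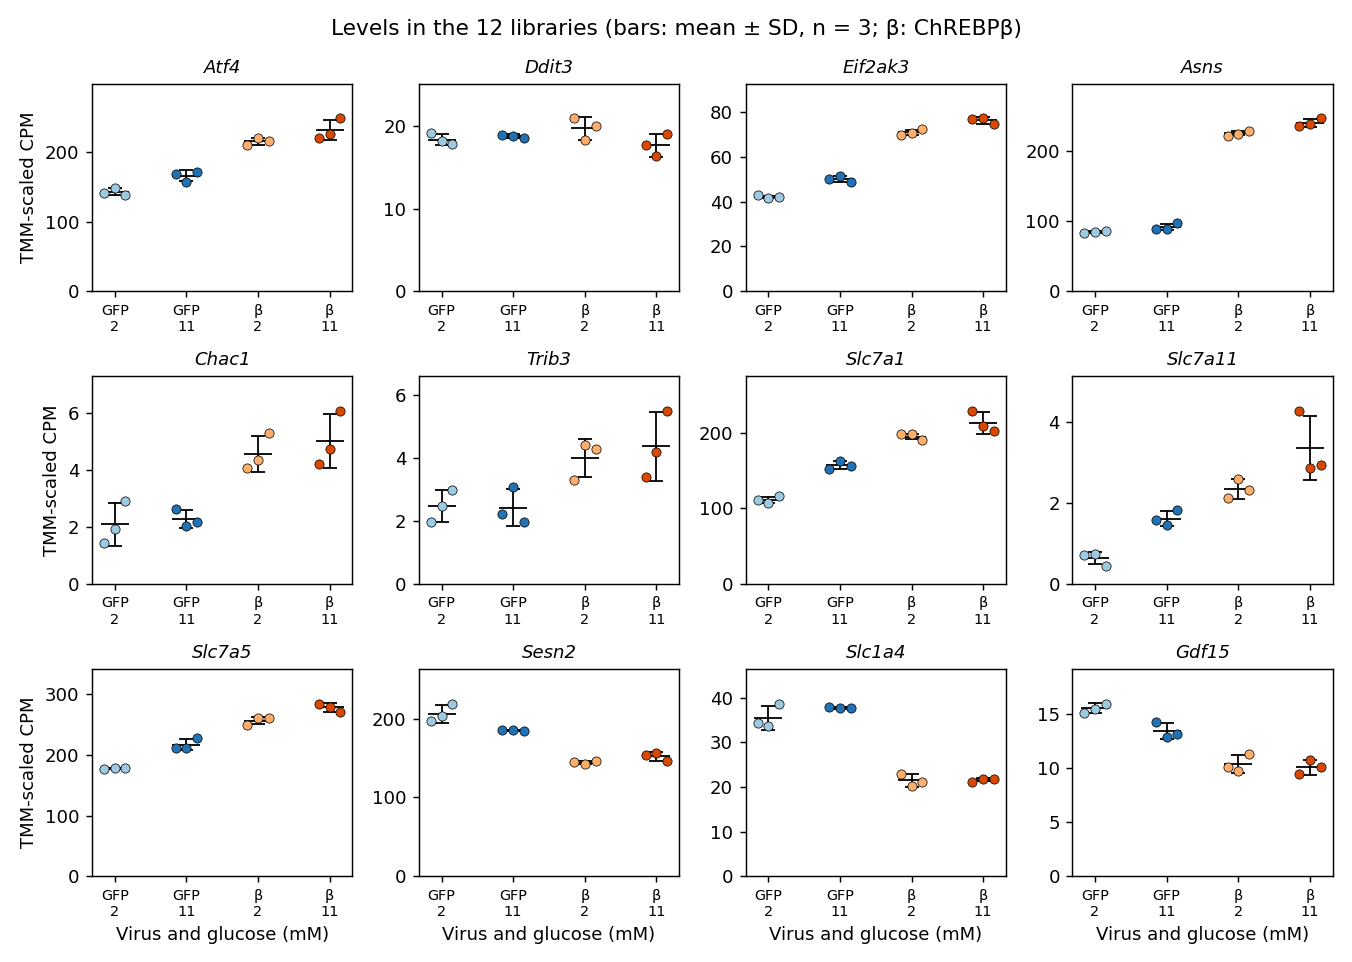
Points are TMM-scaled CPM of single libraries (vertical axis, from 0) for 12 members with GFP or ChREBPβ (β) in 2 or 11 mM glucose (horizontal axis), and bars give the mean ± SD of 3 libraries. Asns rises from 82.2 to 96.6 CPM with GFP to 222 to 247 with ChREBPβ, Ddit3 stays between 16.4 and 21, and Slc1a4 drops from 33.6 to 38.7 to between 20.3 and 23.

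Of the feedback and growth regulators, Chac1 and Trib3 rose and Sesn2 fell with ChREBPβ at both glucose concentrations. Chac1, an enzyme that breaks down glutathione, stood at 1.43, 1.92 and 2.92 CPM with GFP in 2 mM, at 2.63, 2.04 and 2.18 with GFP in 11 mM, at 4.05, 4.35 and 5.28 with ChREBPβ in 2 mM and at 4.21, 4.74 and 6.07 with ChREBPβ in 11 mM. Each ChREBPβ library was above each GFP library, although the 3 GFP libraries in 2 mM spread widely. The log2 fold change was 1.13 ± 0.21 in 2 mM (adjusted p = 0.000102) and 1.13 ± 0.19 in 11 mM (adjusted p = 5.67e-05).

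Trib3, a pseudokinase that restrains Atf4 and Akt, stood at 1.95, 2.48 and 2.98 CPM with GFP in 2 mM, at 2.23, 3.08 and 1.95 with GFP in 11 mM, at 3.29, 4.42 and 4.3 with ChREBPβ in 2 mM and at 3.41, 4.19 and 5.5 with ChREBPβ in 11 mM. The virus groups did not overlap, and the change was 0.71 ± 0.21 in 2 mM (adjusted p = 0.00641) and 0.86 ± 0.2 in 11 mM (adjusted p = 0.00108).

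Sesn2, a leucine sensor that restrains mTORC1, went the other way. It fell from 197, 203 and 219 CPM to 145, 142 and 146 in 2 mM (-0.51 ± 0.043, adjusted p = 3.8e-09) and from 185, 185 and 184 to 154, 156 and 146 in 11 mM (-0.28 ± 0.043, adjusted p = 1.84e-05). The 11 mM value is near the minimum fold change, and the call was lost with DESeq2 (-0.26) and without ChREBPβ in 11 mM c (-0.25). Ddit4, another mTORC1 inhibitor, was at 0.24 in 2 mM with overlapping libraries, under the minimum (called without GFP in 2 mM b, 0.28, GFP in 2 mM c, 0.29, or ChREBPβ in 2 mM a, 0.32), and rose by 0.60 ± 0.092 in 11 mM (adjusted p = 1.96e-05), from 12.6 to 13.7 CPM to 17.4 to 21.4. Eif4ebp1, an inhibitor of cap-dependent translation, had 1 count over 12 libraries and was not tested.

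Of 7 tested amino acid transporters, Slc7a1, Slc7a5, Slc7a11 and Slc38a2 rose and Slc1a4 fell at both glucose concentrations. Slc7a11, the cystine and glutamate exchanger that feeds glutathione synthesis, stood at 0.698, 0.729 and 0.449 CPM with GFP in 2 mM, at 1.57, 1.45 and 1.82 with GFP in 11 mM, at 2.11, 2.6 and 2.31 with ChREBPβ in 2 mM and at 4.28, 2.86 and 2.94 with ChREBPβ in 11 mM. The 4 groups did not overlap one another, but library a with ChREBPβ in 11 mM lay well above the other two. The change with ChREBPβ was 1.91 ± 0.25 in 2 mM (adjusted p = 1.4e-06), the largest among the members, and 1.05 ± 0.19 in 11 mM (adjusted p = 0.000108).

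Slc7a1, which carries arginine and lysine, stood at 111, 107 and 116 CPM with GFP in 2 mM, at 152, 163 and 156 with GFP in 11 mM, at 198, 198 and 191 with ChREBPβ in 2 mM and at 229, 209 and 202 with ChREBPβ in 11 mM. The 4 groups were ordered without overlap. The change with ChREBPβ was 0.81 ± 0.049 in 2 mM (adjusted p = 2.21e-11) and 0.44 ± 0.048 in 11 mM (adjusted p = 2.04e-07).

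Slc7a5, the large neutral amino acid carrier, was at 177, 178 and 178 CPM with GFP and 249, 261 and 261 with ChREBPβ in 2 mM (0.53 ± 0.04, adjusted p = 8.39e-10), and at 212, 212 and 228 against 285, 280 and 271 in 11 mM (0.36 ± 0.04, adjusted p = 2.95e-07). Its heavy chain Slc3a2 was higher in every ChREBPβ library, at 0.26 and 0.15, just under and under the minimum; the 2 mM value was called with DESeq2 (0.27) and in 10 of the 12 fits that left out 1 library (0.26 to 0.28), all but those without GFP in 2 mM a or ChREBPβ in 2 mM b. Slc38a2, a sodium-coupled carrier of small neutral amino acids, rose from 287 to 326 CPM to 409 to 437 in 2 mM (0.44 ± 0.053, adjusted p = 5.58e-07) and from 301 to 333 to 376 to 421 in 11 mM (0.32 ± 0.053, adjusted p = 4.6e-05), where scaling to library totals took the call away (0.24).

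Slc1a4, a neutral amino acid exchanger, was the transporter that fell. It stood at 34.3, 33.6 and 38.7 CPM with GFP in 2 mM, at 38, 37.6 and 37.8 with GFP in 11 mM, at 23, 20.3 and 21.2 with ChREBPβ in 2 mM and at 21.2, 21.7 and 21.9 with ChREBPβ in 11 mM. No GFP library came near a ChREBPβ library. The change was -0.73 ± 0.062 (adjusted p = 4.34e-09) and -0.81 ± 0.059 (adjusted p = 7.93e-10). Slc1a5, the related glutamine carrier, was at 0.14 and -0.07 with overlapping libraries. Slc7a3, another cationic carrier, had 18 counts in all and was not tested.

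Of the amino acid enzymes, Asns and Gpt2 rose and 3 others did not pass the test. Asns, which makes asparagine and is a classic Atf4 target, stood at 82.2, 84 and 85.4 CPM with GFP in 2 mM, at 88.4, 88.7 and 96.6 with GFP in 11 mM, at 222, 225 and 229 with ChREBPβ in 2 mM and at 236, 239 and 247 with ChREBPβ in 11 mM. The level was 2.69-fold higher in 2 mM (log2 1.43 ± 0.043, adjusted p = 3.98e-16) and 2.63-fold higher in 11 mM (1.40 ± 0.042, adjusted p = 9.38e-16). Asns was not among the 9 members in which TGATGNAA was found. The search covered only 250 bases before to 50 bases after an annotated start, so it does not show that the gene lacks the element. Gpt2, the mitochondrial alanine aminotransferase, rose from 8.62 to 12 CPM to 14.2 to 17.6 in 2 mM (0.61 ± 0.11, adjusted p = 0.000104) and from 10.6 to 12.2 to 12.8 to 15.4 in 11 mM (0.31 ± 0.11, adjusted p = 0.0189). The 11 mM call was lost without GFP in 11 mM c (0.25), ChREBPβ in 11 mM a (0.26) or ChREBPβ in 11 mM c (0.29), and with library totals (0.23).

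Aldh18a1 and Pycr1, which make proline, and the mitochondrial folate enzyme Aldh1l2 were read at 0.525 to 3.34 CPM and had log2 fold changes between -0.21 and 0.23 with ChREBPβ. Their SEs of 0.17 to 0.28 leave differences of this size undetectable at this depth. Cbs, of the transsulfuration pathway, had 41 counts in all and was not tested. Of the secreted proteins, Gdf15 fell from 15.1, 15.5 and 16 CPM to 10.1, 9.77 and 11.3 in 2 mM (-0.58 ± 0.08, adjusted p = 3.73e-06) and from 14.3, 12.9 and 13.2 to 9.5, 10.8 and 10.1 in 11 mM (-0.41 ± 0.078, adjusted p = 0.000204). Gdf15 is a stress hormone that Atf4 and Chop can induce. Fgf21, another such hormone, was at or below 0.256 CPM in every library and its libraries overlapped, and Stc2 had 2 counts in all and was not tested.

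**Figure D3:**
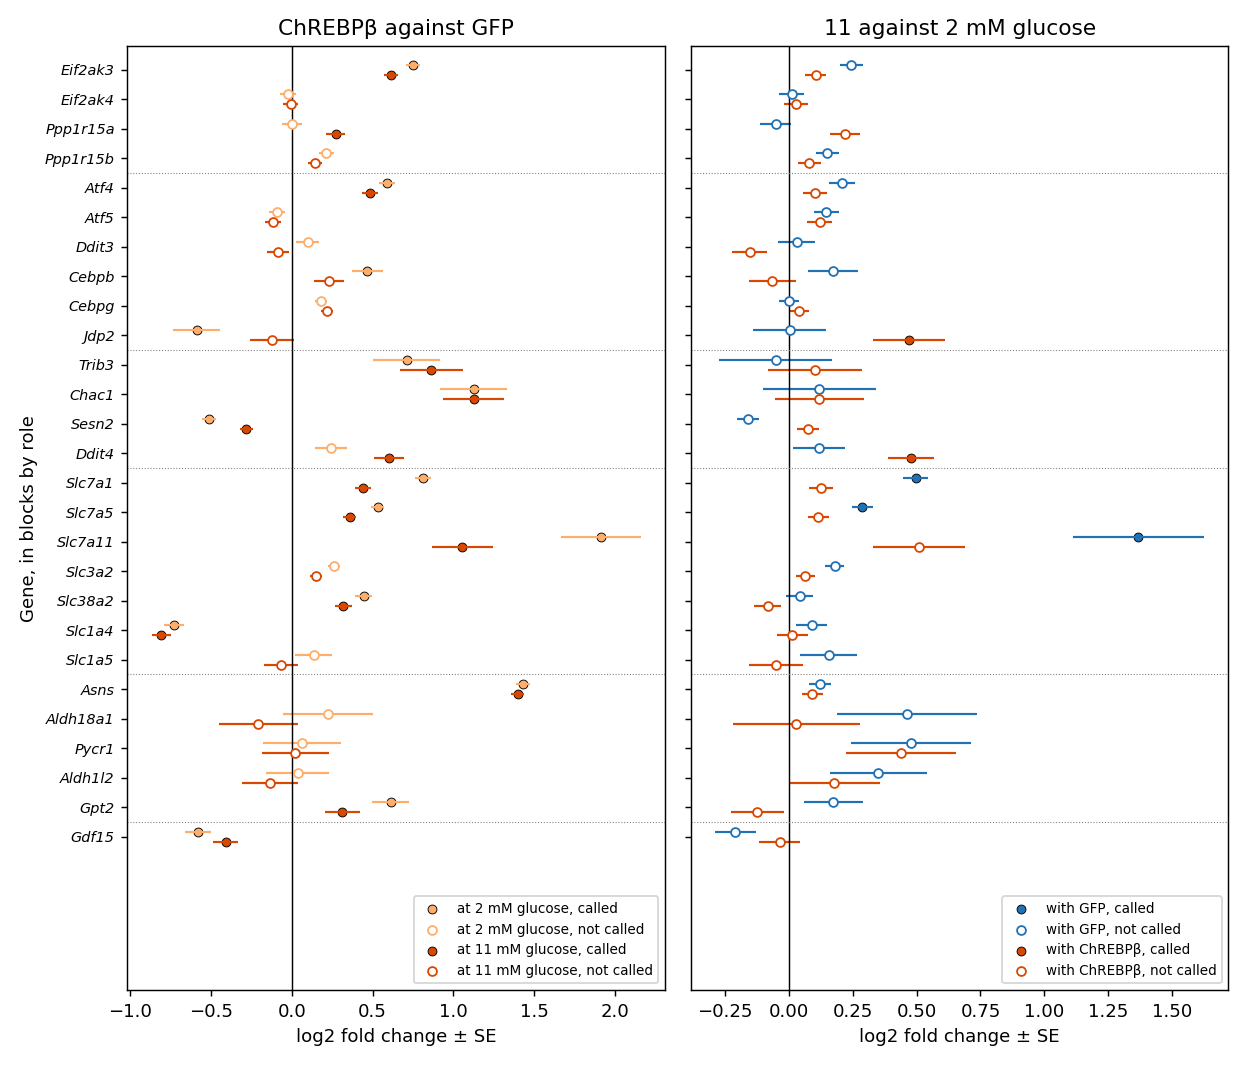
Points give the log2 fold change (horizontal axis) of 27 tested members (vertical axis, by role), bars 1 SE, filled points a call. The left panel compares ChREBPβ with GFP at each glucose concentration and the right panel 11 with 2 mM glucose under each virus, where 3 members are called with GFP and 2 with ChREBPβ.

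The next comparison asked what glucose did. With GFP, 11 against 2 mM glucose raised 3 members, all transporters, or 10.7% of the 28 tested, against 10.2% of all tested genes raised, and 20.2% were called in either direction. It lowered 0 members with edgeR and 0 with DESeq2, and 2 members were lower at an unadjusted p under 0.05. The libraries of the glucose concentrations did not overlap in 42.9% of the members and 42.0% of all tested genes. Slc7a11 rose by 1.37 ± 0.26 (adjusted p = 0.000343), Slc7a1 by 0.50 ± 0.049 (adjusted p = 2.1e-07) and Slc7a5 by 0.29 ± 0.04 (adjusted p = 1.57e-05), from the levels given above. The Slc7a5 call was lost without GFP in 11 mM c (0.25) and with library totals (0.26). The number raised was 5 without GFP in 2 mM b, when Cebpb (0.29) and Gpt2 (0.32) were added. Atf4 was higher in each 11 mM library (0.21 ± 0.05, adjusted p = 0.00284) and so was Eif2ak3 (0.25 ± 0.044, adjusted p = 0.000239), both under the 1.2-fold minimum; without GFP in 11 mM c Eif2ak3 was called (0.27). Pycr1 was at 0.48 and was called without GFP in 2 mM c (0.73). Asns was at 0.12, Ddit3 at 0.03, Chac1 at 0.12 and Trib3 at -0.05.

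With ChREBPβ, 11 against 2 mM glucose raised 2 members, or 7.14%, against 0.988% of all tested genes raised, and 3.87% were called in either direction. It lowered 0 members with edgeR and 0 with DESeq2, and 1 member was lower at an unadjusted p under 0.05. The libraries did not overlap in 46.4% of the members and 28.9% of all tested genes. Ddit4 rose by 0.48 ± 0.091 (adjusted p = 0.00238), from 12.4, 14.4 and 15.5 CPM to 17.4, 21.4 and 20.8. Jdp2 rose by 0.47 ± 0.14 (adjusted p = 0.0457), from 3.9, 4.17 and 3.87 CPM to 5.41, 4.37 and 6.84, and lost the call with library totals and in 7 of the fits that left out 1 library, where its value ran down to 0.29 without ChREBPβ in 11 mM c. Slc7a11 was at 0.51, Slc7a1 at 0.13 and Slc7a5 at 0.12 there, and none passed the test.

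The difference between the ChREBPβ effects at 11 and 2 mM glucose was tested directly. It was called in 1 of 28 members (3.57%), against 6.31% of all tested genes, of which 4.74% had a negative and 1.56% a positive difference. A positive difference was called in 0 members with edgeR and in 1 with DESeq2 (Ppp1r15a, 0.28), and 4 members had one at an unadjusted p under 0.05. In Slc7a1 the ChREBPβ effect was smaller in 11 mM by 0.37 ± 0.068 on the log2 scale (difference -0.37, adjusted p = 0.00153). Slc7a11 had a larger difference with a larger error (-0.86 ± 0.32, adjusted p = 0.112), and without ChREBPβ in 11 mM a it was called (-1.07). For Sesn2 the fall was smaller in 11 mM (0.23 ± 0.061, adjusted p = 0.0211), under the 1.2-fold minimum, and called without GFP in 2 mM a (0.27). Ppp1r15a was called without GFP in 11 mM a (0.32) and Ddit4 without ChREBPβ in 11 mM a (0.45). For Asns the difference was -0.03 ± 0.06 and for Atf4 -0.11 ± 0.069.

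Other genes of the pathway came from 5 lists of related genes. Of 13 tested further targets of the Atf4 arm, 8 rose (61.5%) and 3 fell (23.1%) with ChREBPβ in 2 mM, against 21.0% and 23.2% of all tested genes. In 11 mM 6 rose (46.2%) and 2 fell (15.4%), against 14.3% and 19.1%. The share that fell was close to that of all genes at both concentrations. Psph, which completes serine synthesis, stood at 51.5, 51.4 and 50.3 CPM with GFP and 512, 499 and 527 with ChREBPβ in 2 mM, a log2 fold change of 3.33 ± 0.052 (adjusted p = 3.6e-20), and at 2.86 ± 0.05 in 11 mM. Atf3, a stress-induced bZIP factor, stood at 4.48, 4.26 and 4.23 against 29.5, 30.1 and 30.2 CPM in 2 mM (2.79 ± 0.078, adjusted p = 1.15e-16) and at 2.79 ± 0.072 in 11 mM. Niban1 fell by 1.60 and 1.27 on the log2 scale.

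The cytosolic aminoacyl-tRNA synthetases, which charge tRNAs, and the other eIF2 genes were called more often in 2 than in 11 mM glucose, a difference in counts that was not tested as such. Of 19 tested synthetases 11 rose with ChREBPβ in 2 mM (57.9%, against 21.0% of all tested genes), with a median of 0.29, and 2 rose in 11 mM (10.5%, against 14.3%), with a median of 0.11. The number that rose in 11 mM was 4 with DESeq2 or with its RLE size factors in edgeR and 10 with no minimum fold. Cars1 (0.57), Vars1 (0.56) and Tars1 (0.46) led in 2 mM, and Cars1 (0.42) and Sars1 (0.27) rose in 11 mM. With library totals the number that rose in 2 mM was 6. With GFP, 11 mM glucose raised 9 of the 19 (47.4%, against 10.2% of all tested genes) and lowered 0, among them Vars1 (0.46), Iars1 (0.40) and Tars1 (0.38); with library totals the number was 5.

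Of 16 other eIF2 genes, 8 rose and 1 fell (6.25%) in 2 mM, against 21.0% and 23.2% of all tested genes, and 1 rose and 1 fell (6.25% each) in 11 mM, against 14.3% and 19.1%. With no minimum fold 9 rose and 3 fell in 11 mM. Eif2b1, of the exchange factor eIF2B, was at 0.49 in 2 mM, Eif2s2, the eIF2β subunit, at 0.45, and Dnajc3, an inhibitor of the kinases, at -0.49 and -0.41. With library totals 3 rose in 2 mM.

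The other amino acid transporters were called in both directions. Of 19 tested, 6 rose and 6 fell in 2 mM (31.6% each, against 21.0% and 23.2% of all tested genes) and 5 rose and 5 fell in 11 mM (26.3% each, against 14.3% and 19.1%). Slc1a2, a glutamate carrier, rose from 0.128 to 0.404 CPM to 2.01 to 2.9 in 2 mM (3.22 ± 0.34) and by 3.55 in 11 mM. Slc38a3, a glutamine carrier, rose by 2.21 and 1.64. Slc16a10, an aromatic amino acid carrier, fell by 1.67 in 2 mM. It fell in 11 mM as well, from 47.9 to 53.8 CPM with GFP to 17.4 to 18.8 with ChREBPβ.

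The Ire1 and Atf6 arms of the unfolded protein response, which run beside the Perk arm, had 1 rise (8.33%) and 5 falls (41.7%) of 12 tested genes in each glucose concentration, against 21.0% higher and 23.2% lower of all tested genes in 2 mM and 14.3% and 19.1% in 11 mM. Sdf2l1, an endoplasmic reticulum co-chaperone, fell by 1.07 in 2 mM and 1.29 in 11 mM, Creld2 by 0.46 and 0.65, and Hspa5, the chaperone BiP, by 0.32 and 0.44. The kinase gene Ern1 (Ire1) rose by 0.49 in 2 mM and 0.41 in 11 mM.

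**Figure D4:**
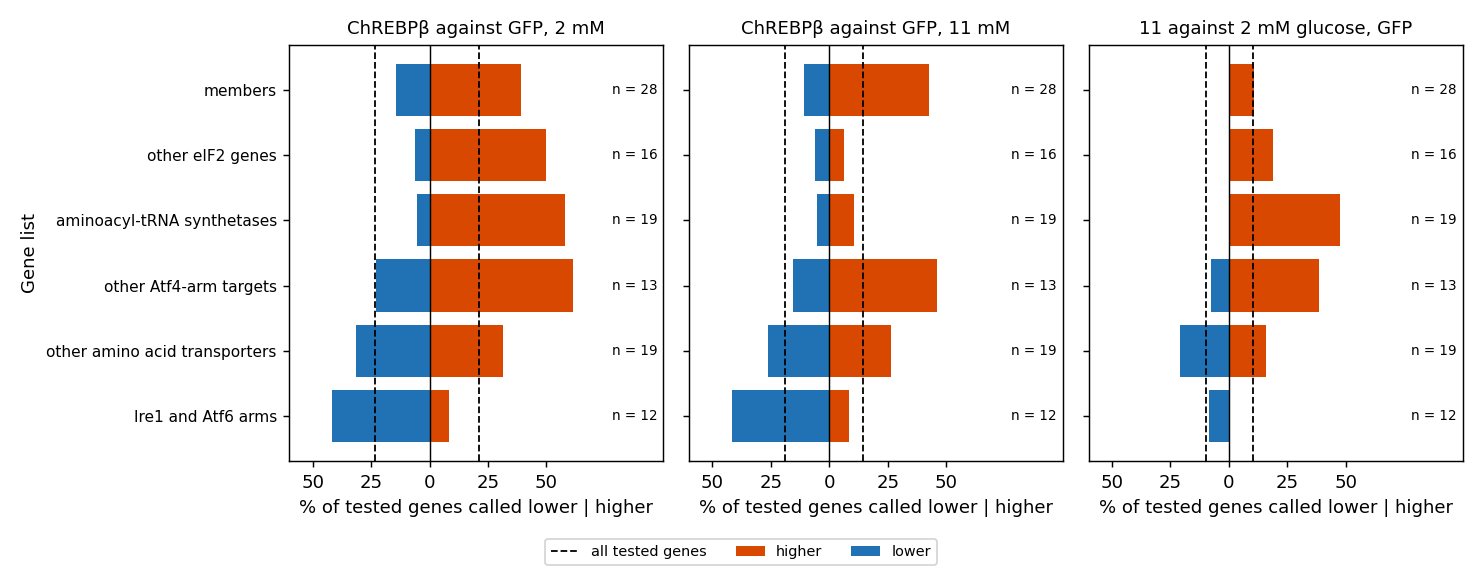
Bars give the share of tested genes of each list (vertical axis) called higher (to the right) or lower (to the left) in 3 comparisons, in percent, and dashed lines the same shares over all 14669 tested genes. The members, the other Atf4-arm targets and the other transporters pass the dashed line for higher genes in both ChREBPβ panels, and the Ire1 and Atf6 arms and the other transporters pass the line for lower genes in both.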

How the data were processed

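RNA of INS-1 832/13 cells was amplified and sequenced in paired-end reads. The authors deposited raw counts per gene (12 libraries), with 4 columns of their group means, not used here. The submitters' processing notes name Rnor_6.0 and edgeR; aligner and counter are not given in the sources used here. The 1 entry without a gene name (0.0043 to 0.00601% of counts) was left out. The members and lists were chosen with earlier results of these data known. Counts were fitted with edgeR 4.0.16 (R 4.3.3; filterByExpr by group, TMM factors 0.958 to 1.06, quasi-likelihood test, group only) in all 12 libraries, with Benjamini-Hochberg adjustment over 14669 genes. Of 6 pairs of groups, those differing in both virus and glucose were not tested. Letters may mark independent experiments, but the labels do not say so; p-values measure the spread between libraries. Replicates differed beyond sampling noise (chi-square per degree of freedom 3.06 to 16.6). SEs come from the F statistic. Values were given in every library for Atf4, Ddit3 and, per comparison, the 6 members with the largest called change and any called in the interaction; those of Jdp2, Sesn2, Ddit4 and Gdf15 were added after they were seen; from other lists at most 3 genes per comparison were named, and 1 result is not reported here. Of the 84 genes of those lists, 83 were matched to an entry, by their own symbol or through a RefSeq synonym. Alternatives were DESeq2 1.42.0, RLE factors, library totals, filters, fold minimums, a replicate block, pairwise fits and leaving out each library. The test was tried on simulated data.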

Additional observations from a re-analysis of the deposited data

Results flagged for a closer look

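The ChREBPβ effect differed between 11 and 2 mM glucose, by the test of the difference itself (edgeR, all 14669 genes), in 1 member and in 12 of 79 tested genes of the 5 related lists. The difference was negative in the member and in 11 of the 12 and positive in 1, against 4.74% negative and 1.56% positive of all tested genes. The log2 difference was -0.37 for Slc7a1. It was -0.53 for Psat1, -0.47 for Psph and -0.45 for Mthfd1l, of serine and one-carbon metabolism. It was -0.41 for Vars1, -0.38 for Iars1 and -0.27 for Mars1, of the tRNA synthetases, and -0.28 for Eif2b1. It was -0.58 for Slc6a15, -0.57 for Slc38a3 and -0.33 for Slc7a6, of the transporters. Adjusted p of these named genes ran from 3.48e-06 for Psat1 to 0.0115 for Iars1. Psat1 shows the pattern in its levels: it stood at 83.6, 84.8 and 80 CPM with GFP in 2 mM, at 142, 140 and 140 with GFP in 11 mM, at 167, 176 and 173 with ChREBPβ in 2 mM and at 198, 208 and 201 with ChREBPβ in 11 mM. Genes were named by size, at most 3 per list; in the Atf4-arm list Vldlr (0.35), the 1 positive difference, and Xpot (-0.29) also passed.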

How the results depend on the processing

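Over 21 alternatives, 140 results of single members gave 2899 values. Of these, 2812 kept the main call status, 39 lost a call and 48 gained one. No called direction was reversed, and 78 values changed sign where neither fit made a call, which was not counted as a reversal. Scaling to library totals moved the median log2 fold change of all genes to -0.12 in 2 mM and -0.10 in 11 mM, and the share of calls that were higher from 47.5% to 33.2% and from 42.9% to 29.3%. With it the members' median was 0.14 in both glucose concentrations, members raised by glucose with ChREBPβ numbered 1, synthetases raised numbered 6, 1 and 5 (ChREBPβ in 2 mM, in 11 mM, glucose with GFP), other eIF2 genes raised 3 and 0, and those lowered in 2 mM 2. With DESeq2, RLE factors or at least 10 counts in every library, 4 synthetases rose in 11 mM. The members' median in 11 mM was 0.24 with DESeq2 and with RLE factors. A positive difference of the ChREBPβ effects, called in 0 members (edgeR; 4 at unadjusted p under 0.05), was called in 1 with DESeq2, RLE factors, library totals and at least 10 counts (Ppp1r15a), without a filter (Ddit4) and with no minimum fold (Sesn2). Without a filter, Cbs entered the test and was lowered by glucose with GFP (1 member), and 1 other transporter had a positive difference.

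With no minimum fold, glucose with GFP raised 9 members, 14 synthetases, 7 other eIF2 genes and 2 of the Ire1 and Atf6 arms and lowered 2 members and 2 of those arms. In 11 mM, ChREBPβ then raised 10 synthetases and 9 other eIF2 genes and lowered 3 of the latter and 8 of the Ire1 and Atf6 arms, and in 2 mM it lowered 2 other eIF2 genes. Glucose with ChREBPβ then raised 3 synthetases, 2 Atf4-arm targets and 1 other transporter and lowered 2 of the Ire1 and Atf6 arms, and 3 other eIF2 genes had a negative difference. At 1.5-fold or more, ChREBPβ lowered 2 members in 2 mM and raised 6 and lowered 1 in 11 mM, glucose raised 1 member with GFP and 0 with ChREBPβ, and the difference was called in 0. Atf4-arm targets raised then numbered 4, 2 and 2 and those lowered 1, 1 and 0 (ChREBPβ in 2 mM, in 11 mM, glucose with GFP), other transporters raised 3 in 11 mM and 1 by glucose and lowered 2 by glucose with GFP and 0 with ChREBPβ, and the Ire1 and Atf6 arms lowered 1, 2 and 0 and raised 0; synthetases, other eIF2 genes and every list in the interaction gave 0.

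Leaving out 1 library at a time, members raised by glucose ranged from 3 to 5 with GFP and from 1 to 2 with ChREBPβ, and those lowered with GFP from 0 to 1 (Cbs, which then entered the test). Members with a positive difference ranged from 0 to 1 and with a negative one from 1 to 2. The members' median ranged from 0.20 to 0.30 in 2 mM and from 0.054 to 0.096 for glucose with ChREBPβ. Other eIF2 genes raised in 11 mM ranged from 0 to 2 and synthetases from 1 to 4; negative differences ranged from 0 to 2 in other eIF2 genes and from 0 to 1 in the Ire1 and Atf6 arms, and positive ones from 0 to 1 in other transporters. The correlation of same-letter deviations from the group means was weak, from -0.114 to 0.0644 over 18 pairs. Between unlike letters it ran from -0.0871 to 0.159, and 4 of 12 libraries correlated best with their own letter. These values do not settle whether the letters pair the libraries. The fit with the replicate block left 11 members higher and 4 lower in 2 mM and 12 higher and 3 lower in 11 mM, and changed no call of a member. The causes were not tested. Aldh18a1, Pycr1 and Aldh1l2, read at 0.525 to 3.34 CPM, and Fgf21, at or below 0.256 CPM, gave no call of ChREBPβ, and differences of the size read in them were not detectable at this depth.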
